A study of Mus musculus with 50 samples.

Results

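Ion channels, ion pumps and water channels were followed across 10 groups of mouse airway samples. The members were all probes annotated with a single gene symbol of the epithelial sodium channel, SLC26, SLC4, SLC9, SLC12, potassium channel, Cftr, chloride channel, aquaporin, sodium pump, vacuolar proton pump and carbonic anhydrase families. The rule left out Slc26a4, Car2, Scnn1b, Scnn1g and Kcnj15. It selected 140 genes out of 13409 named on a larger array platform and 13509 on a smaller one. They were measured by 152 of 18272 and 18057 probes, and the same members were present on both. Of these genes 4 matched by name and are not transporters themselves (Slc4a1ap, Slc9a3r1, Slc9a3r2 and Kcnmb4os1).

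Airway epithelium sets the volume and acidity of the liquid on its surface by moving salt, and water follows. Chloride leaves through apical channels such as Cftr after entry through the cotransporter Slc12a2, sodium is taken up through the epithelial sodium channel, and potassium channels hold the voltage that drives both. SLC4 and SLC26 exchangers move bicarbonate made with the help of carbonic anhydrases, and the vacuolar proton pump (V-ATPase), a complex of a membrane sector and a catalytic sector, acidifies organelles and, in some cells, the surface liquid. The cytokine IL-13, prominent in allergic airways, signals through the transcription factor Stat6 and is known to change both mucus and ion transport in this epithelium.

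The study compared RNA of tracheal perfusate and of whole lung on 50 arrays with 2 channels, in 10 groups of 5. In each tissue the labels name IL-13 for 3 groups, of the genotypes Stat6+/-, Stat6-/- and Stat6-/- Epi+, and name ovalbumin (OVA, an allergen) or saline (PBS) for the other two. In published lines of that name Epi+ denotes Stat6 put back in airway epithelial cells alone. The labels hold the mark without its promoter, and they give no promoter for IL-13, no strain, age or sex, and no Stat6 genotype for OVA and PBS animals. No group had these genotypes without IL-13, so a genotype difference that exists without IL-13 cannot be told apart from a changed response to it. Perfusate RNA had 1 round of amplification, which the labels of 3 perfusate arrays do not state, and lung RNA had none. The labels do not say whether arrays of a group stand for separate animals. The p-values therefore reflect the spread among these arrays, part of which may be technical.

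Each value is a log2 ratio to a reference RNA after the array's median was subtracted, and arrays held 15693 to 18655 spots with a value. References differed between perfusate, whole lung of IL-13 animals and whole lung of OVA and PBS animals, so levels are set side by side only within one of these sets and never between genes. The direction was taken as sample over reference. This is likely because the Il13 probe read 2.76 ± 0.55 (SD, n = 5) in perfusate of Stat6-/- IL-13 animals and 0.038 ± 0.34 (n = 5) in PBS perfusate. The stimulus itself was uneven between the perfusate genotypes: Il13 read 1.77 ± 0.44 in Stat6+/- and 2.09 ± 0.35 in Epi+ arrays (n = 5 each), and it was lower in Stat6+/- than in Stat6-/- by 0.99 ± 0.21 on the log2 scale (adjusted p = 0.012). Its part in the perfusate differences between genotypes was not tested. In whole lung Il13 read 5.34 ± 0.82 in Stat6+/-, 5.18 ± 0.43 in Stat6-/- and 5.54 ± 0.56 in Epi+ arrays (n = 5 each). The Stat6 probe did not separate the genotypes (0.65 ± 0.51 in Stat6+/- against 0.75 ± 0.44 in Stat6-/- perfusate), and its place relative to the disrupted part of the gene is unknown here. Each difference is given on the log2 scale, ± its standard error in the limma model. The adjusted p is the limma p after Benjamini-Hochberg correction across all probes tested. A member is called, and said to rise or fall, at an adjusted p under 0.05.

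RefSeq lists a promoter of 300 bases (250 before and 50 after the start site, build GRCm38.p6) for 113 of the 140 genes. Both strands of the first listed promoter of each gene were searched for CACGTG, the core of the E-box that many helix-loop-helix factors read, and for TTC followed by GAA after 4 free bases, a palindrome of the type Stat6 binds. The motifs and the promoters shown were chosen with earlier results of these data known. CACGTG stood in 17 of the 113 members' promoters (15%) and in 4 of 14 V-ATPase promoters (28.6%), against 7.24% of 27025 genes. The palindrome stood in 5.31% of the members' promoters against 6.99% of all genes. The first 2 promoters below belong to V-ATPase subunits and carry CACGTG near the start site, at -3 and at 4. The last belongs to Kcnk2, a member with a called difference and a match to the palindrome, at -177. Positions are those of the motif's first base counted from the start site, and capitals mark the motif.
Atp6v0d1 (chr8:105566015-105566314, minus strand): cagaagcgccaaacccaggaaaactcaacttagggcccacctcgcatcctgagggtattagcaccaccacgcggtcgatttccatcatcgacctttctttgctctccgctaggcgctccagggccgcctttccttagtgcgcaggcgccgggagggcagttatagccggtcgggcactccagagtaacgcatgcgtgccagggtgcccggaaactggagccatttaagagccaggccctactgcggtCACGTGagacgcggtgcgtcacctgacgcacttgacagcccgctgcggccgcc
Atp6v0e (chr17:26676146-26676445, plus strand): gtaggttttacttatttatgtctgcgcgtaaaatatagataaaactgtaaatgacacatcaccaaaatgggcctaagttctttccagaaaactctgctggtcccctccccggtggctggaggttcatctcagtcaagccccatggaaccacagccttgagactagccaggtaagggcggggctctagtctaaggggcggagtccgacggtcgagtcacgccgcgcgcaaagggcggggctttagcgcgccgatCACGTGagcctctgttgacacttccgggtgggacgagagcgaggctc
Kcnk2 (chr1:189402224-189402523, minus strand): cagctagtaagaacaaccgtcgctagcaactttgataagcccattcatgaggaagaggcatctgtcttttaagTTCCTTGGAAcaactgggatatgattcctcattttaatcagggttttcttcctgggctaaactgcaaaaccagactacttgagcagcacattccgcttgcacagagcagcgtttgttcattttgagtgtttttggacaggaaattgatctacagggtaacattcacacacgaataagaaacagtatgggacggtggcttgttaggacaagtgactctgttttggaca
The first listed promoter of Kcne3, the member with the smallest p in whole lung, held neither motif. A match is a description of letters and does not show a binding site.

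The comparison of Stat6+/- with Stat6-/- whole lung asked what a working Stat6 allele changes in lungs exposed to IL-13. Of 133 members tested 13 were called (9.77%), against 4.84% of all 16096 probes, with 10 higher and 3 lower in Stat6+/- lung (all probes: 3.23% higher and 1.61% lower). The members that rose were Kcne3, Car13, Aqp3, Kcnmb2, Slc4a2, Kcnk1 and the V-ATPase subunits Atp6v1b2, Atp6v1h, Atp6v0d1 and Atp6v1g1. Kcnk3, Kcnh1 and Scnn1a fell. The median over all tested members was 0.10, against -0.04 over all probes, and 71 members lay above 0 and 62 below.

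Kcne3 is an accessory subunit that keeps the potassium channel Kcnq1 open at the basolateral side of epithelia. Its values were 1.15, 1.48, 2.19, 1.80 and 1.26 in Stat6+/- lung, 0.04, -0.77, 0.02, -0.12 and -0.96 in Stat6-/- lung, and 0.51, 0.76, 0.92, 0.30 and 1.17 in Epi+ lung. All Stat6+/- arrays lay above all Stat6-/- arrays, and the Epi+ arrays lay above the Stat6-/- arrays, with 1 of them just inside the range of Stat6+/-. The rise against Stat6-/- was 1.93 ± 0.28 (3.82-fold, adjusted p = 0.00155). Kcnq1 itself was -0.83 ± 0.37 in the same comparison and did not pass.

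Among the other potassium channel members, Kcnmb2, an accessory subunit of the large-conductance calcium-activated channel, rose by 1.18 ± 0.24 (adjusted p = 0.0141) on the first of its 2 probes. The other probe gave 0.52 ± 0.40 and did not pass. Kcnk1, a background potassium channel, rose by 0.81 ± 0.21 (adjusted p = 0.0462). Kcnk3, an acid-sensitive background potassium channel, was at -0.27, -1.35, -2.98, -1.59 and -1.17 in Stat6+/- lung and between -0.12 and 0.35 in Stat6-/- lung. Its groups did not overlap, and it fell by 1.51 ± 0.34 (adjusted p = 0.0216). Kcnh1, a voltage-gated channel best known from the brain, fell by 1.51 ± 0.39 (adjusted p = 0.0435).

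Members of bicarbonate, water and sodium transport were called singly. Car13, a cytosolic carbonic anhydrase, stood at 1.72, 2.86, 1.68, 2.48 and 2.44 in Stat6+/- lung against -0.01, 1.11, 0.54, -0.08 and 0.02 in Stat6-/- lung. The groups did not overlap, and the rise was 1.92 ± 0.45 (adjusted p = 0.0271). None of the other 11 carbonic anhydrase probes tested was called. Aqp3, a channel for water and glycerol at the basolateral side of airway cells, stood at 1.38, 2.48, 0.84, 1.80 and 0.48 against 0.39, -1.81, -0.25, -0.28 and 0.16. All Stat6+/- arrays were above all Stat6-/- arrays, with a rise of 1.76 ± 0.47 (adjusted p = 0.0497). Of the 9 aquaporins tested Aqp3 was the only one called, while Aqp1, the water channel of lung vessels, was -0.63 ± 0.17 (adjusted p = 0.0573) and Aqp5, the apical water channel of alveolar type I and gland cells, -0.38 ± 0.26. Slc4a2, an exchanger of chloride for bicarbonate at the basolateral side, rose by 1.05 ± 0.27 (adjusted p = 0.0431). Scnn1a, the alpha subunit of the epithelial sodium channel, ranged from -0.69 to 0.99 in Stat6+/- and from 0.11 to 1.58 in Stat6-/- lung and fell by 0.80 ± 0.20 (adjusted p = 0.0389). Cftr was 0.34 ± 0.21 and Slc12a2 0.15 ± 0.20, and neither passed.

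**Figure D1:**
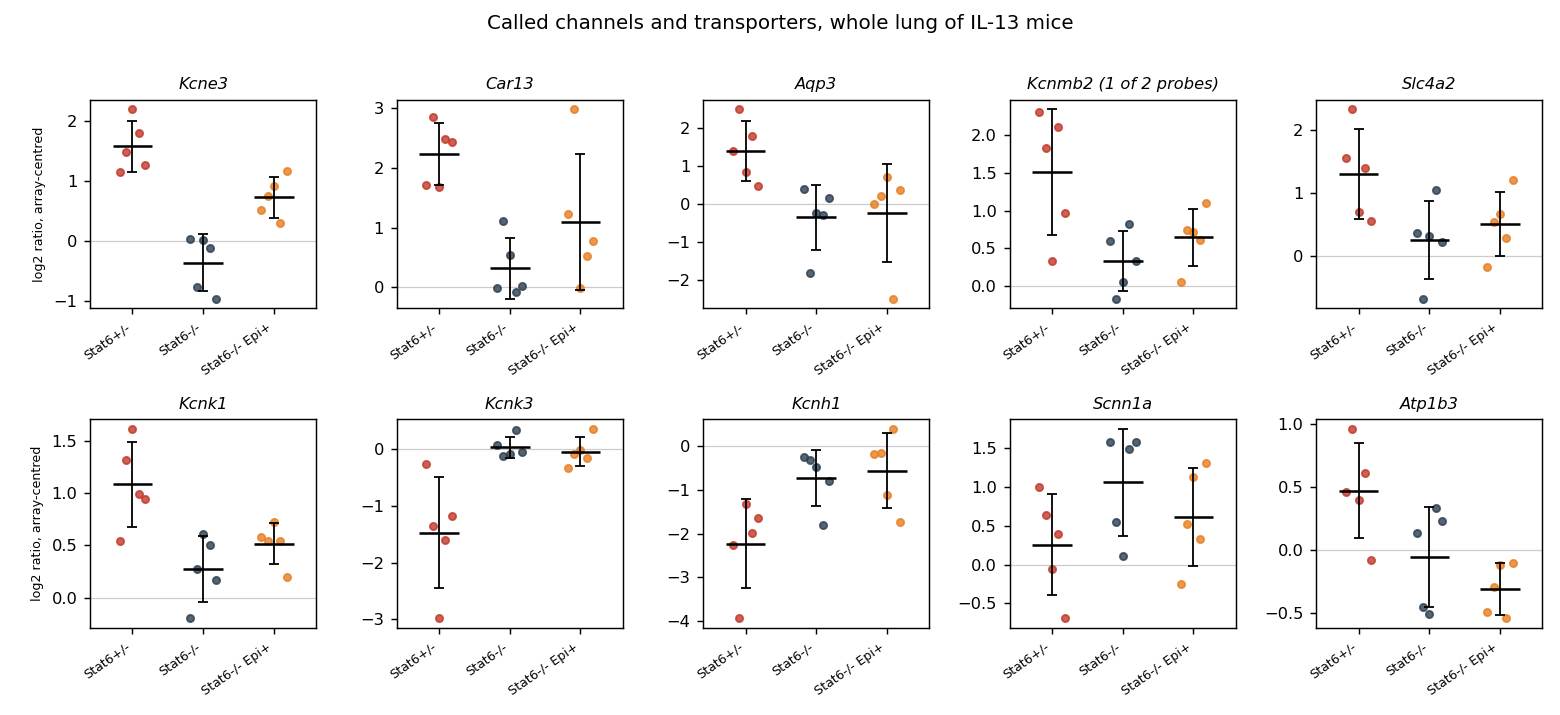
Array-centred log2 ratios to the reference in whole lung of IL-13 mice for 10 members, with 1 point per array, a bar for the group mean and whiskers for the SD (n = 5 per group). In Kcne3, Car13 and Aqp3 every Stat6+/- array lies above every Stat6-/- array, and in Kcnk3 every Stat6+/- array lies below them. The vertical scales differ between panels.

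The V-ATPase supplied 4 of the 13 members called between Stat6+/- and Stat6-/- whole lung. Of 19 probes of 18 subunit genes 4 rose and none fell in Stat6+/- lung, where 3.23% of all probes rose. A further 7 were below an unadjusted p of 0.05. With the 4 called these were 11 of 19 probes, where 19.1% of all probes were below it. Of the 19 probes 16 lay above 0, and the median was 0.66. With the values as deposited the V-ATPase median was 0.29 beside -0.41 for all probes, with quantile normalization 0.44 beside -0.016, and no subunit passed under either. Atp6v1b2, the B subunit found in most cells, stood at 1.11, 1.82, 1.22, 1.86 and 1.13 in Stat6+/- lung, at 0.35, 0.31, 0.34, 0.93 and 0.42 in Stat6-/- lung, and at 0.26, 0.18, 0.38, 0.46 and 0.59 in Epi+ lung. The Stat6+/- arrays lay above all others, and the rise against Stat6-/- was 0.96 ± 0.19 (1.94-fold, adjusted p = 0.0106). Atp6v1h, which regulates the catalytic sector, rose by 0.97 ± 0.25 (adjusted p = 0.0406), Atp6v0d1, of the membrane sector, by 0.84 ± 0.21 (adjusted p = 0.0372), and Atp6v1g1, of the stalk, by 0.81 ± 0.21 (adjusted p = 0.044). Atp6v0e, whose promoter is shown above, was 0.71 ± 0.20 (adjusted p = 0.0672). Atp6v1b1, the B subunit of specialised acid-secreting cells, was 0.20 ± 0.23. The 4 probes of sodium pump beta subunits lay between 0.50 and 0.87, and none passed.

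**Figure D2:**
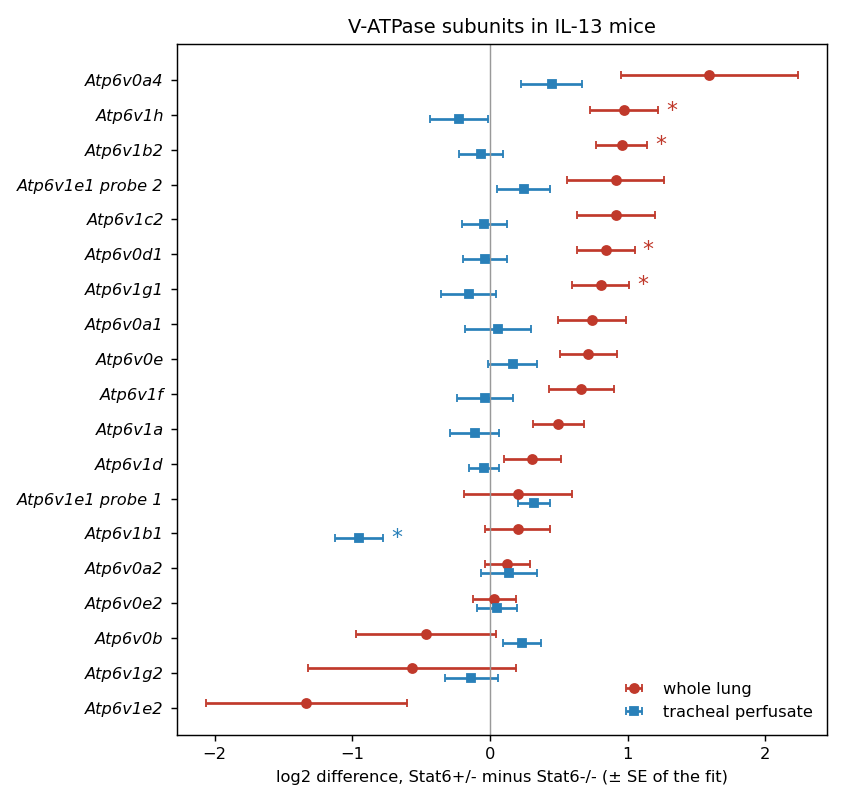
Log2 difference of Stat6+/- minus Stat6-/- IL-13 mice for each V-ATPase probe in whole lung (circles) and tracheal perfusate (squares), with the SE of the fit; stars mark an adjusted p under 0.05. In whole lung 16 of 19 probes lie to the right of 0 and 4 carry a star, while in perfusate, where Atp6v1e2 was not tested, 8 of 18 lie to the right and Atp6v1b1 carries the only star, to the left.

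Markers of other cell types moved with these groups. Of 7 macrophage markers tested 5 rose in Stat6+/- lung, among them Cd68 by 3.12 ± 0.32 and Itgax by 3.16 ± 0.27, and the list's median was 2.33. The median of this list per array ranged from 1.34 to 3.26 in Stat6+/-, from -0.28 to 0.37 in Stat6-/- and from -0.26 to 0.37 in Epi+ lung. Of 7 endothelial markers 4 fell, with a median of -1.23, and per array the list ranged from -1.24 to -0.38 in Stat6+/- against -0.26 to 0.31 in Stat6-/- lung. Goblet cell markers rose in 4 of 5 cases, with a median of 3.87. Of 12 probes for striated and cardiac muscle 3 fell and 1 rose, with a median of -0.99. Of 5 alveolar type I markers 2 fell (Cav1 -1.21 ± 0.20 and Rtkn2 -1.07 ± 0.22), with a list median of -0.67. Of 5 club cell markers 2 fell (Pon1 -3.57 ± 0.22 and Scgb3a2 -3.19 ± 0.45). The neutrophil marker Ltf rose by 2.89 ± 0.39 (1 of 6) and the red cell marker Alas2 fell by 1.48 ± 0.30 (1 of 2). Siglecf, on the list of eosinophils and mast cells, fell by 1.09 ± 0.27 (1 of 7). That list had a median of -0.69 and reached up to 1.10. The part of these cell types in the differences of the members was not tested, and in bulk RNA fewer cells of a type and less RNA per cell cannot be told apart. The 13 called members had the same sign in both reference pools. The arrays of these pools also gave the calls, so this is no separate test. Among the genes left out by the rule, Slc26a4 rose by 6.82 ± 0.83, Kcnj15 by 2.04 ± 0.24 and Car2 by 1.20 ± 0.20, and Scnn1g fell by 1.14 ± 0.23. Of 34 regulators and partners of epithelial transport on a list, 3 rose and none fell: Fxyd4, which adjusts the sodium pump (4.44 ± 0.54), Fxyd5, of the same family (0.94 ± 0.24), and the sodium and glucose cotransporter Slc5a1 (3.94 ± 0.58).

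The calls in this comparison depended on the fit. Kcne3, Atp6v1b2 and the first Kcnmb2 probe passed with each of the 10 arrays left out in turn, and the other 10 called members lost the call in 3 to 8 of these fits. The count fell from 13 to 4 without Stat6-/- replicate 1, 2 or 6 or Stat6+/- replicate 5, to 5 without Stat6+/- replicate 3, to 6 without Stat6-/- replicate 4 and to 8 without Stat6+/- replicate 4. It was 2 with the values as deposited (1 higher, 1 lower) and 5 with quantile normalization (2 higher, 3 lower). It was 1, Kcne3, without the Stat6-/- replicates 1 and 2, on which Eif2s3y, a Y-linked gene with 2 spots, read on one of them -3.06 and -3.16. On the same arrays Uty, also Y-linked, read -3.66 and -4.35, and on replicate 1 the other Eif2s3y spot read -3.63 and Xist, which female cells express, 7.35. That other spot was also low on Stat6-/- replicate 5 (-2.43), where the first spot read 0.004 and Uty 0.38. Kdm5d, a further Y-linked gene, read -2 and -1.41 on replicates 1 and 2, and between -1.93 and -0.49 in Stat6+/- lung. The labels give no sex, so it may differ within and between the groups compared. Leaving out 2 of 5 Stat6-/- arrays also lowers the precision, so the reason for the lost calls cannot be told.

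Epi+ against Stat6-/- whole lung tests what the mark adds in animals without Stat6. None of 133 members was called in the limma fit, against 0.0746% of all probes. Below an unadjusted p of 0.05 were 5 members (3.76%), against 4.17% of all probes. Kcne3 had the smallest p. Its 5 Epi+ arrays lay above the Stat6-/- arrays as given above, with a difference of 1.11 ± 0.28 (adjusted p = 0.653). The next members were Kcnj12, an inward rectifier, at -1.56 ± 0.61, the anion exchanger Slc26a6 at 0.97 ± 0.39, the V-ATPase subunit Atp6v1c2 at 0.69 ± 0.29 and the voltage-gated channel Kcng4 at -0.99 ± 0.44, all at an adjusted p of 0.983. Of the 19 V-ATPase probes 13 lay above 0, with a median of 0.07. In the same comparison Slc26a4 rose by 5.41 ± 0.85 and Kcnj15 by 1.57 ± 0.24, and no transport partner was called. Goblet cell markers rose in 3 of 5 cases (median 2.61), and the part of these cells was not tested.

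Stat6+/- against Epi+ whole lung sets a working Stat6 allele against the mark alone. Of 133 members 3 were called (2.26%), against 3.42% of all probes. Higher were 2 members (all probes: 2.4%) and lower was 1 (all probes: 1.02%). Atp6v1b2 rose by 1.00 ± 0.19 (adjusted p = 0.0136) in Stat6+/- lung, with no overlap between the groups. Atp1b3, a beta subunit that carries the sodium pump to the membrane, stood at 0.46, 0.96, 0.40, 0.62 and -0.07 in Stat6+/- against -0.49, -0.29, -0.12, -0.54 and -0.10 in Epi+ lung. The Stat6+/- arrays were the higher ones, and the rise was 0.68 ± 0.16 (adjusted p = 0.042). Kcnk3 fell by 1.53 ± 0.34 (adjusted p = 0.0282). Its Epi+ values, -0.33 to 0.36, reached 1 of the 5 Stat6+/- values. Of 19 V-ATPase probes 16 lay above 0, with a median of 0.57 (0.40 with the values as deposited and 0.34 with quantile normalization). Macrophage markers rose in 4 of 7 cases (median 2.16) and endothelial markers fell in 3 of 7 (median -0.81). Of 12 probes for striated and cardiac muscle 4 fell (median -1.19), of 5 club cell markers 2 fell (Pon1 -2.56 ± 0.22 and Scgb3a2 -2.76 ± 0.47), and of 5 goblet cell markers 2 rose (median 1.29). One marker each fell for alveolar type I cells (of 5), red cells (of 2) and eosinophils and mast cells (of 7), and 1 of 6 neutrophil markers rose. Their part was not tested. Fxyd4 (3.63 ± 0.55) and the protease St14 (0.80 ± 0.20) rose among the partners. This comparison shares the Stat6+/- arrays with the one before last. The count was 10 without Stat6+/- replicate 1, 5 without Stat6+/- replicate 6 and 1 without Stat6+/- replicate 5 or Epi+ replicate 4 or 6, and Kcnk3 was the only call left with quantile normalization and none was left with the values as deposited.

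The members called in tracheal perfusate were not those called in whole lung. For Kcnk2 and Kcnj4 among them, the direct comparison of the tissues given below called no difference. Between Stat6+/- and Stat6-/- perfusate of IL-13 animals 4 of 149 members were called (2.68%), against 3.14% of all 16873 probes. Atp6v1b1 and Kcnk2 fell (2.02% of all probes did) and Aqp11 and Kcnj4 rose (1.11%). Atp6v1b1 stood at -1.25, -0.18, -0.93, -0.21 and -1.38 in Stat6+/-, at 0.30, 0.16, 0.11, 0.40 and -0.17 in Stat6-/-, and at -0.77, -0.17, -0.74, -0.19 and -0.89 in Epi+ perfusate. The Stat6+/- and Stat6-/- values did not overlap, although 2 Stat6+/- arrays, at -0.18 and -0.21, lay close to the lowest Stat6-/- array. The fall was 0.95 ± 0.17 (1.93-fold, adjusted p = 0.00323). None of the other 17 V-ATPase probes tested was called, and their differences lay between -0.23 and 0.45.

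Kcnk2, a background potassium channel opened by stretch and lipids, stood at -1.0, -1.18, -2.30, -1.97 and -2.41 in Stat6+/- and at -1.24, 0.57, 0.93, 0.57 and 0.51 in Stat6-/- perfusate. Stat6-/- replicate 10 lay among the Stat6+/- values, and the other 4 Stat6-/- arrays lay above them. The fall was 2.04 ± 0.37 (4.11-fold, adjusted p = 0.00336), and Epi+ values ranged between -1.01 and -0.50. Aqp11, a water channel of intracellular membranes, ranged from 0.07 to 1.45 in Stat6+/- and from -1.09 to 0.10 in Stat6-/- perfusate. The ranges met at their ends, and the rise was 1.26 ± 0.26 (adjusted p = 0.00907). Kcnj4, an inward rectifier, stood at 0.71, 0.81, 0.93, 0.40 and 0.57 against -0.20, 0.29, -0.44, -0.99 and -0.15. These groups did not overlap, and the rise was 0.98 ± 0.22 (adjusted p = 0.0172).

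Other members of salt and fluid transport were read in the same perfusate comparison. Clcn6, a chloride and proton exchanger of endosomes, was -0.88 ± 0.24 (adjusted p = 0.0557), Clic4, an intracellular chloride channel protein, 0.69 ± 0.22 (adjusted p = 0.106), Clic3 of the same family -0.65 ± 0.21 (adjusted p = 0.11), Kcnq1 0.68 ± 0.21 (adjusted p = 0.0933) and Scnn1a -0.45 ± 0.20 (adjusted p = 0.333). Cftr was 0.061 ± 0.35 (adjusted p = 0.977). Slc26a4 rose by 1.99 ± 0.28 and Car2 by 1.15 ± 0.22, while Scnn1b fell by 1.58 ± 0.32 and Scnn1g by 1.56 ± 0.32. Among 35 partners Ezr, a linker of transporters to the cytoskeleton, rose by 0.96 ± 0.17 and the calcium channel Trpv4 fell by 0.72 ± 0.15.

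**Figure D3:**
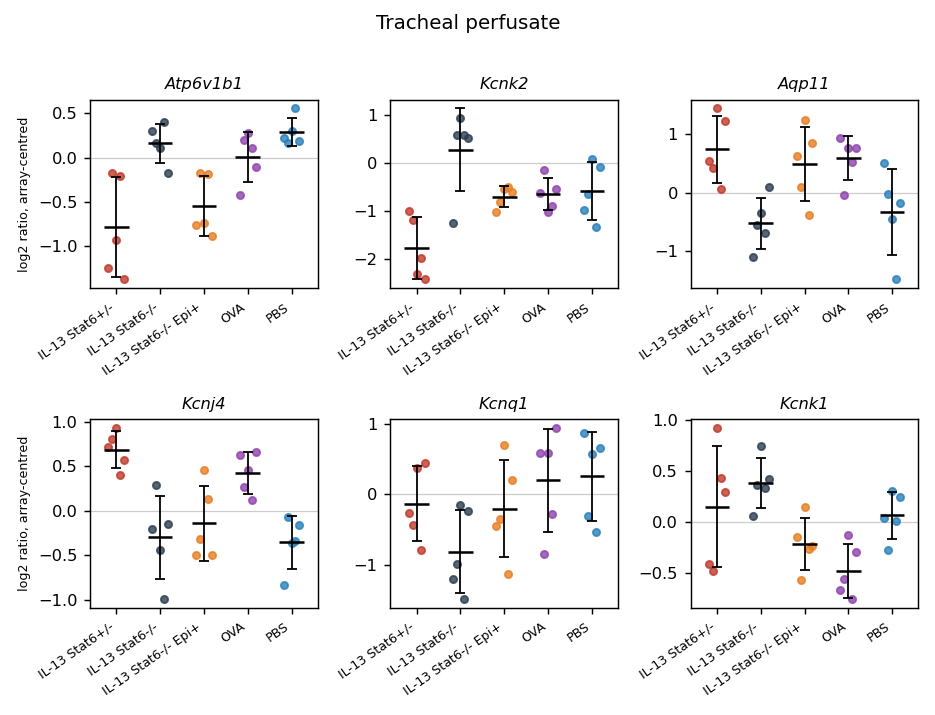
Array-centred log2 ratios to the reference in tracheal perfusate for 6 members in 5 groups, with 1 point per array, a bar for the mean and whiskers for the SD (n = 5 per group). Kcnj4 is higher in every Stat6+/- array than in any Stat6-/- array, Atp6v1b1 is lower, and 1 Stat6-/- array of Kcnk2 lies among the Stat6+/- arrays. The vertical scales differ between panels.

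The 5 reference preparations of perfusate each held 1 array of every group. Atp6v1b1, Aqp11 and Kcnj4 differed in the same direction within all 5, and Kcnk2 within 4. The same arrays gave the calls, so this is no separate test. Macrophage markers were called in 0 of 7 cases in this limma fit, with a median of -0.07. Goblet cell markers rose in 4 of 6 cases (median 1.94), 1 of 6 markers of ciliated cells rose (median 0.52), and of 12 probes for striated and cardiac muscle 2 rose (median 0.41). The club cell marker Pon1 fell by 1.75 ± 0.19 (1 of 5) and the endothelial marker Ramp2 by 1.12 ± 0.24 (1 of 6). Their part in the members' differences was not tested. Kcnk2 was the only member still called with the values as deposited (adjusted p = 0.0357) and without Stat6-/- replicates 10, 11 and 12 (adjusted p = 0.0188), on which the same Eif2s3y spot stood at -3.45, -2.11 and -1.93. Uty read -2.10, -0.95 and -0.93 on these arrays and Xist -0.09, 0.91 and -0.33. On the other 22 perfusate arrays Uty lay between -0.98 and 0.96 and Xist between -5.70 and -1.36. The other Eif2s3y spot read 0.52, 0.17 and 0.03 on replicates 10, 11 and 12. Kdm5d read 0.25, 0.10 and -0.03 on these arrays, within the range of the other perfusate arrays (-1.51 to 2.06). The labels give no sex, which may differ between these groups too, and 3 of the 4 calls were lost without the 3 arrays. Leaving out 3 of 5 Stat6-/- arrays also lowers the precision, so the reason for the loss cannot be told. With only these 2 groups in the fit none of the 4 passed. With 1 array left out in turn, Atp6v1b1, Kcnk2 and Aqp11 passed in all 10 fits and Kcnj4 in 6.

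Epi+ against Stat6-/- perfusate gave no called member among 149 in the limma fit, against 0.486% of all probes. Below an unadjusted p of 0.05 were 12 members (8.05%), against 7.41% of all probes. Atp6v1b1 was lower by 0.71 ± 0.17 in Epi+ (adjusted p = 0.0784), and the groups met at -0.17 without overlapping. Kcnk1 was -0.60 ± 0.15 (adjusted p = 0.0978), Aqp11 1.01 ± 0.26 (adjusted p = 0.12), Kcnq1 0.61 ± 0.21 and Kcnab2, an accessory subunit of voltage-gated channels, 0.73 ± 0.27. Slc26a4 rose by 2.01 ± 0.28 and Car2 by 1.20 ± 0.22, and no transport partner was called. Goblet cell markers rose in 3 of 6 cases and ciliated cell markers in 1 of 6. Of 7 macrophage markers 1 fell, and of 5 club cell markers 1 fell. The part of these cells was not tested. This comparison shares the Stat6-/- arrays with the one before, and both sets of values are given side by side. Between Stat6+/- and Epi+ perfusate no member was called in the limma fit, against 0.0237% of all probes. Below an unadjusted p of 0.05 were 13 members (8.72%), against 7.02% of all probes. The smallest p-values belonged to Kcnj4 (0.83 ± 0.22, adjusted p = 0.258), the large-conductance channel Kcnma1 (1.88 ± 0.61), Kcnk2 (-1.07 ± 0.37), the cotransporter Slc12a8 (0.56 ± 0.21) and Clic4 (0.55 ± 0.22). Weighting the arrays in limma, an alternative added after earlier results were known, called 2 members in the first of these comparisons and 4 in the second. The share of all probes called with weights is not given here, so whether these counts exceed it cannot be told.

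In perfusate of OVA against PBS animals no member was called in the limma fit, against 0.237% of all probes. Below an unadjusted p of 0.05 were 11 members (7.38%), against 9.16% of all probes. Aqp11 stood at 0.94, -0.03, 0.77, 0.52 and 0.76 in OVA and at 0.52, -0.02, -0.45, -1.48 and -0.17 in PBS perfusate. The groups overlapped, and the difference was 0.91 ± 0.26 (adjusted p = 0.202). Kcnj4 stood at 0.63, 0.27, 0.46, 0.11 and 0.66 against -0.83, -0.07, -0.37, -0.34 and -0.17. Its groups did not overlap, with a difference of 0.78 ± 0.22 (adjusted p = 0.202). Kcnk1 was -0.55 ± 0.15 (adjusted p = 0.189) and Kcnk4, another background potassium channel, -0.74 ± 0.21 (adjusted p = 0.202). The muscle chloride channel Clcn1, with values on only 3 arrays of each group, was -2.31 ± 0.96 (adjusted p = 0.47). Slc26a4 rose by 1.66 ± 0.28. Goblet cell markers rose in 2 of 6 cases and markers of eosinophils and mast cells in 1 of 7, and their part was not tested.

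Stat6-/- perfusate of IL-13 animals against PBS perfusate asks what IL-13 changes without Stat6, as far as the unstated genotype of the PBS animals allows. Of 149 members 1 was called (0.671%), against 0.599% of all probes (lower: 0.296%). Kcnq1, the potassium channel that Kcne3 modifies, stood at -1.20, -0.99, -0.15, -1.49 and -0.24 in Stat6-/- and at 0.87, -0.30, 0.58, -0.53 and 0.67 in PBS perfusate. The groups overlapped as a whole and differed in the same direction within all 5 reference preparations, whose arrays also gave the call. The fall was 1.07 ± 0.21 (adjusted p = 0.0265). Ccdc39, 1 of 6 markers of ciliated cells, fell by 1.18 in the same comparison, while the median of that list was -0.10. The part of these cells was not tested. Without the reference block Kcnq1 did not pass (adjusted p = 0.375). Without Stat6-/- replicates 10, 11 and 12 it did not pass either (adjusted p = 0.0903), in a fit with lower precision for this group. The next members were Kcnj8, a channel gated by ATP in vessels (-1.41 ± 0.37, adjusted p = 0.0872), Slc12a2 (-0.62 ± 0.17, adjusted p = 0.0909), the bicarbonate exchanger Slc4a3 on the first of its probes (0.81 ± 0.23, adjusted p = 0.101) and the inward rectifier Kcnj3 (0.64 ± 0.20, adjusted p = 0.12). The count of 1 became 0 without Stat6-/- replicate 10, 13 or 14 or PBS replicate 22, 23 or 24, 4 without Stat6-/- replicate 12 and 3 without PBS replicate 25.

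In whole lung of OVA against PBS animals 4 of 145 members were called (2.76%), against 1.75% of all 17047 probes. All 4 rose, where 1.5% of all probes rose. Slc26a5, an anion transporter known as the motor protein of cochlear hair cells, stood at 1.00, 2.10, 1.40, 1.59 and 1.61 in OVA and at 0.79, -0.29, 0.10, -0.60 and -0.28 in PBS lung. The groups did not overlap, and the rise was 1.59 ± 0.31 (3.02-fold, adjusted p = 0.0314). Slc26a2, a sulfate transporter of the same family, stood at 0.70, 1.04, 1.09, 1.37 and 0.90 against 0.15, 0.12, -0.41, 0.05 and -0.07. It rose by 1.05 ± 0.22 (adjusted p = 0.042), again without overlap. In Stat6+/- against Stat6-/- whole lung Slc26a2 was 0.74 ± 0.23 and Slc26a5 0.12 ± 0.56, and neither passed.

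The accessory subunits Kcne1 and Kcnab2 also rose in OVA lung. Kcne1, a relative of Kcne3, stood at 1.46, 1.18, 1.42, 2.53 and 1.52 against -0.18, -0.54, -0.79, 0.73 and 0.20, with a rise of 1.74 ± 0.35 (adjusted p = 0.0373). Kcnab2 stood at 0.94, 0.94, 0.73, 1.14 and 1.39 against 0.13, -0.02, -0.13, -0.04 and 0.08, with a rise of 1.02 ± 0.20 (adjusted p = 0.0354). OVA and PBS arrays did not overlap in either gene. Car13 stood at 1.21, 2.30, 1.56, 2.42 and 2.18 against 0.62, -0.92, -3.49, -0.15 and 0.05. The groups did not overlap, PBS replicate 3 was far below the rest, and the difference of 2.71 ± 0.67 missed the threshold (adjusted p = 0.076). Kcnn4, a calcium-activated channel of epithelial and immune cells, ranged from -0.84 to 1.40 in OVA and from -2.36 to -1.09 in PBS lung, with a difference of 1.87 ± 0.47 (adjusted p = 0.077). Aqp5 was -1.03 ± 0.30 (adjusted p = 0.124), Scnn1a -0.68 ± 0.35, Aqp3 0.49 ± 0.27, Kcne3 0.44 ± 0.29 and Cftr -0.65 ± 0.54. Of 19 V-ATPase probes none was called, and 9 lay above 0.

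**Figure D4:**
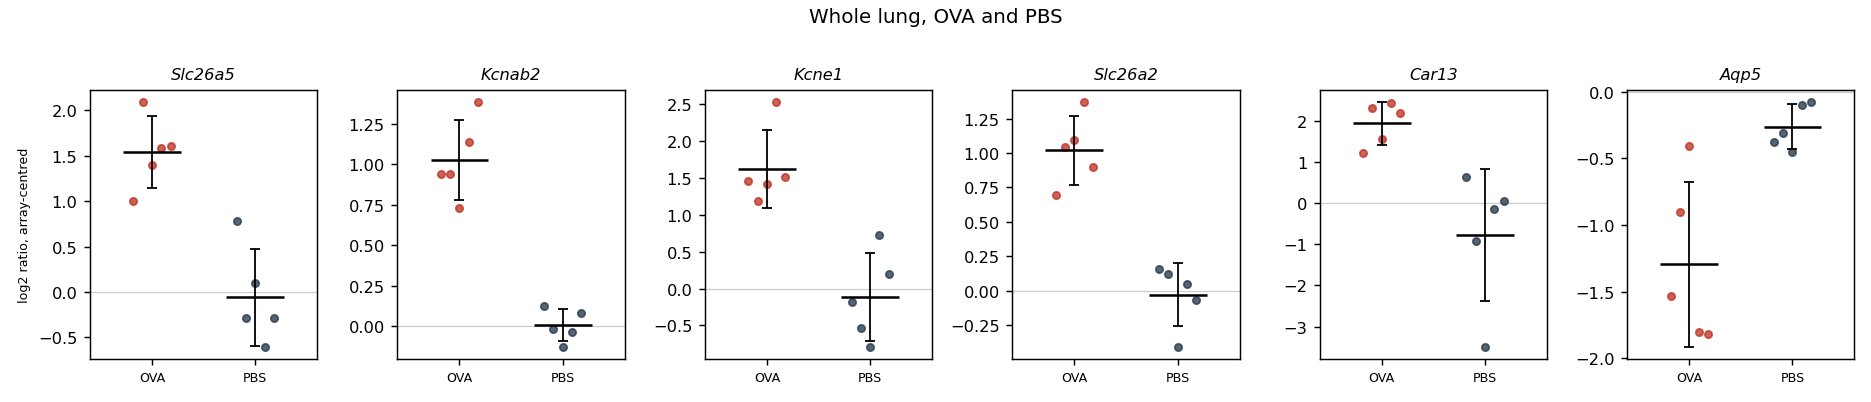
Array-centred log2 ratios to the reference in whole lung of OVA and PBS mice for 6 members, with 1 point per array, a bar for the mean and whiskers for the SD (n = 5 per group). In Slc26a5, Kcnab2, Kcne1, Slc26a2 and Car13 every OVA array lies above every PBS array, and Car13 has 1 PBS array at -3.49. The vertical scales differ between panels.

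Of 8 macrophage markers 4 rose in OVA lung, with a median of 1.64, and per array the list ranged from 1.51 to 2.77 against 0.22 to 0.61 in PBS lung. None of 7 endothelial markers was called in the limma fit, with a median of -0.91. Goblet cell markers rose in 4 of 6 cases (median 2.14), led by Clca1 at 6.13 ± 0.47. The B cell marker Ms4a1 rose by 2.02 ± 0.36, 1 of 4 on its list (median 1.73). Among 7 markers of eosinophils and mast cells none was called (median 1.62, from -0.54 to 2.94). Among 6 T cell markers none was called either (median 1.07, from 0.54 to 1.36). The alveolar type I marker Cav1 fell by 1.00 ± 0.22 (1 of 5) and the club cell marker Pon1 by 2.29 ± 0.39 (1 of 5). The part of these cells was not tested. Slc26a4 (3.50 ± 0.28), Fxyd4 (2.54 ± 0.48) and Slc5a1 (1.32 ± 0.26) rose. All 10 arrays used 1 reference pool. The 4 calls were all lost with the values as deposited and with quantile normalization, where Kcnn4 was called in their place. They were also lost without OVA replicates 2 and 5 together (adjusted p between 0.0655 and 0.0847), a setting added after results were known. Replicate 5 was low on both Eif2s3y spots (-3.25 and -2.25) and on Uty (-1.16), with Xist at 2.94. Replicate 2 was low on 1 Eif2s3y spot (-2.04) and on Uty (-1.53), and read 1.69 on the other Eif2s3y spot. Kdm5d read -0.21 on OVA replicate 5 and -1.03 on OVA replicate 2, and between -0.77 and 0.37 in PBS lung. PBS replicate 5, which was kept, held that lowest Kdm5d value. It read 0.13 and -1.41 on the Eif2s3y spots, -0.47 on Uty and 1.42 on Xist. Sex may differ within this comparison as well, and leaving out 2 of 5 OVA arrays also lowers the precision. Without OVA replicate 5 the count was 4. Without OVA replicate 2 or 6 or PBS replicate 2 or 5 it was 0, and without OVA replicate 1 or 4 or PBS replicate 1, 3 or 4 it was 1.

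The genotype differences of perfusate and whole lung were compared directly by an interaction term. For Stat6+/- against Stat6-/- 12 of 130 members differed between the tissues (9.23%), against 4.31% of all 15370 probes. The difference was lower in perfusate for 8 (all probes: 3.06%) and higher for 4 (all probes: 1.25%). Car13 was -0.75 ± 0.22 in perfusate and 1.92 ± 0.45 in whole lung, a gap of -2.67 ± 0.48 (adjusted p = 0.000548). In perfusate its values ranged from -1.49 to -0.51 in Stat6+/- and from -0.63 to 0.14 in Stat6-/- arrays, and the perfusate difference alone did not pass (adjusted p = 0.0727). Kcne3 was 0.29 ± 0.20 in perfusate and 1.93 ± 0.28 in whole lung, a gap of -1.64 ± 0.33 (adjusted p = 0.00243). Kcnk1 was lower in perfusate by 1.04 ± 0.25 (adjusted p = 0.0096).

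Of 18 V-ATPase probes 5 differed between the tissues, all lower in perfusate. They were Atp6v1b2 (-1.02 ± 0.24), Atp6v1h (-1.20 ± 0.32), Atp6v1g1 (-0.96 ± 0.28), Atp6v0d1 (-0.87 ± 0.25) and Atp6v1b1 (-1.15 ± 0.28). For the first 4 the whole lung difference was the larger one, and for Atp6v1b1 it was the fall in perfusate. The median V-ATPase gap was -0.68, against -0.48 with quantile normalization, where 1 subunit was called, and -0.18 with the values as deposited, where none was and the median of all probes was 0.50. The members with a higher difference in perfusate were Aqp11 (1.97 ± 0.49, adjusted p = 0.0158), Kcnq1 (1.51 ± 0.41, adjusted p = 0.0273), Kcnk3 (1.27 ± 0.36, adjusted p = 0.0402) and Clic4 (0.99 ± 0.29, adjusted p = 0.0481). Aqp11 was 1.26 ± 0.26 in perfusate and -0.71 ± 0.43 in whole lung.

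**Figure D5:**
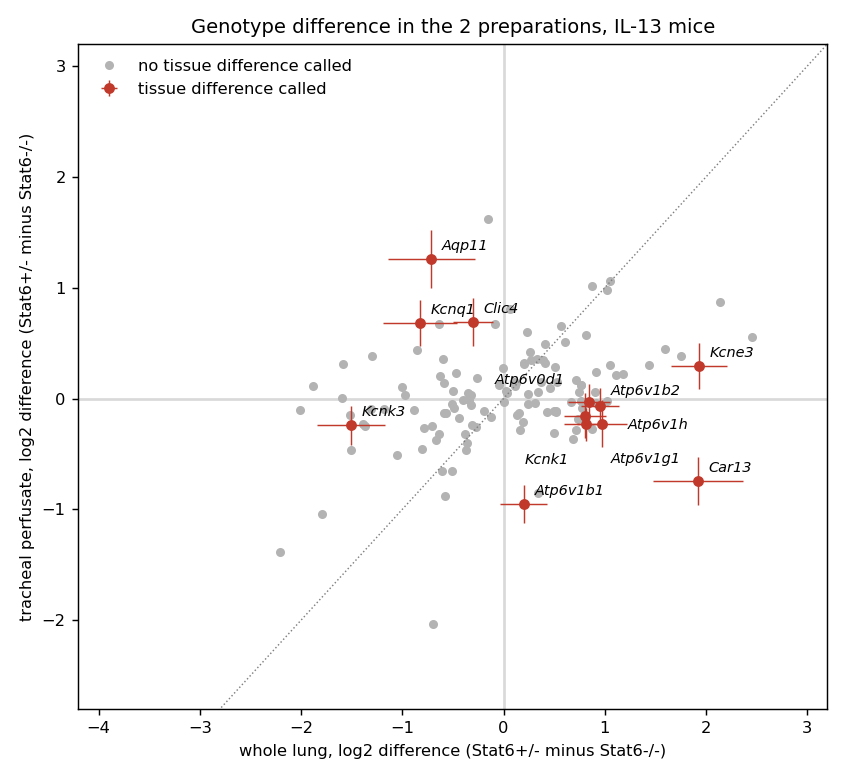
Log2 difference of Stat6+/- minus Stat6-/- IL-13 mice in whole lung (horizontal) and tracheal perfusate (vertical) for the 130 members tested in both, with the SE of each fit on the 12 members whose differences were called unequal. The dotted line marks equal differences; Kcne3 and Car13 lie far to the right of it and Aqp11 far above it.

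The shift of array medians removed before this test was 0.49, and with the values as deposited 5 members were called, all higher in perfusate. With quantile normalization 3 were lower and 3 higher. Without Stat6-/- perfusate replicate 12 or Stat6+/- whole lung replicate 3 the count was 7. Macrophage markers had a lower difference in perfusate in 5 of 7 cases (median -2.20), goblet markers in 3 of 5 and neutrophil markers in 1 of 6. The difference was higher in perfusate for 3 of 12 muscle probes, 2 of 6 endothelial and 2 of 5 club cell markers. Their part was not tested. Perfusate RNA was amplified and lung RNA was not, so tissue and amplification cannot be told apart. Among 34 partners 5 were lower in perfusate: Fxyd4 (-4.18 ± 0.56), Slc5a1 (-4.58 ± 0.55), the lactate transporter Slc16a1 (-0.93 ± 0.24), the phosphate transporter Slc34a2 (-1.49 ± 0.34) and Trpv4 (-2.22 ± 0.54). For Epi+ against Stat6-/- no member was called in the limma fit, against 0.0976% of all probes. Below an unadjusted p of 0.05 were 15 members (11.5%), against 5.98% of all probes. Kcne3 had the smallest p (-1.14 ± 0.34, adjusted p = 0.402), followed by Kcnk1 (-0.80 ± 0.25), Aqp11 (1.50 ± 0.49), Atp6v1b1 (-0.81 ± 0.28) and Kcnk2 (-1.20 ± 0.47).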

How the data were processed

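RNA of tracheal perfusate and whole lung was hybridised with a reference on spotted arrays with 2 channels, 1 array per sample. The authors deposited 1 log2 value per spot, on 19152 spots for 40 arrays and 18240 for 10. Scanner, background correction, filters, normalization and the direction of the ratio were not stated in any source at hand. Without spot intensities, dye bias and background went unexamined, and precision depends on how many arrays a group had. Array medians ran from -0.96 to 0.30, so each array was centred on its median. Centring removed shifts between groups of -0.37, -0.16, -0.21 and -0.17 from the whole lung comparisons, in the order reported. In perfusate it removed 0.12 from Stat6+/- against Stat6-/- and -0.20 from Stat6-/- against PBS, and differences are relative to these.

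Spots of 1 accession were averaged. In 13 members with 2 spots, the spots correlated at a median of 0.495 across arrays (0.018 to 0.858). Symbols came from the platform annotation, and all 152 member probes matched a RefSeq gene by identifier. Different probes of a gene were kept apart. Signal may be shared among probes of close relatives.

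Models were fitted in R 4.3.3 by exact least squares, with moderation by limma 3.58.1 and Benjamini-Hochberg adjustment over all probes. The fits were also run on simulated data, with planted differences larger than most of those called here. Recovery of smaller differences was not examined there. Probes with fewer than 3 values in any fitted group were left out. Perfusate (25 arrays) and whole lung IL-13 arrays (15) were fitted with the reference preparation as a block, OVA and PBS lung (10) without. Replicate numbers of whole lung were not taken to pair the arrays. In IL-13 lung 3 of 12 same-number pairs correlated above 0.1, against 20 of 63 pairs of different number. In OVA and PBS lung these counts were 0 of 4 and 7 of 21.

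In each comparison all called members are named. Where fewer than 5 were called, those with the smallest p are given to a total of 5, with chosen members of salt and water transport. Members, lists and the named genes were chosen with earlier results of these data known. Alternatives were the values as deposited, quantile normalization, complete probes only, no block, 2 groups only, the replicate number as a block, each array left out, the arrays low in a Y-linked gene left out and, added later, array weights and the OVA lung arrays low in Y-linked genes left out.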

Additional observations from a re-analysis of the deposited data

Results flagged for a closer look

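Among the 48 groups of 5 arrays in which a called member was compared, 4 held an array that stood far from the other 4 by Dixon's test, and chance flags about 1 in 20. Stat6-/- whole lung replicate 5 was high for both V-ATPase subunits concerned, at 0.93 for Atp6v1b2 against 0.42 for the next array and at 0.96 for Atp6v1g1 against 0.37. OVA whole lung replicate 5 was high for Kcne1, at 2.53 against 1.52, and it was also low on both Eif2s3y spots. Stat6-/- perfusate replicate 10 was low for Kcnk2, at -1.24 against 0.51, and it was also low for the Eif2s3y spot.

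The difference of Stat6+/- from Stat6-/- was unequal between perfusate and whole lung for 12 members by the interaction test. Perfusate minus whole lung it was -2.67 for Car13, -1.64 for Kcne3, -1.02 for Atp6v1b2, -1.04 for Kcnk1, -1.15 for Atp6v1b1, -1.20 for Atp6v1h, -0.87 for Atp6v0d1 and -0.96 for Atp6v1g1. It was 1.97 for Aqp11, 1.51 for Kcnq1, 1.27 for Kcnk3 and 0.99 for Clic4.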

How the results depend on the processing

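Counts of called members are given in the order Stat6+/- against Stat6-/- and Stat6-/- against PBS in perfusate, Stat6+/- against Stat6-/- and against Epi+ and OVA against PBS in whole lung, and the tissue difference of Stat6+/- against Stat6-/-, where the counts were 4, 1, 13, 3, 4 and 12. With the values as deposited they were 1, 0, 2, 0, 0 and 5, and with quantile normalization 7, 3, 5, 1, 1 and 6. Without the reference block Stat6-/- against PBS fell to 0, the lung comparisons to 4 and 1 and the tissue difference to 2. With only the 2 groups compared the counts were 0, 0, 4 and 0. Without the arrays low in the Y-linked gene they were 1, 0 and 1 in the comparisons with Stat6-/-, and 2 for the tissue difference, and, added after results were known, 0 for OVA lung without OVA replicates 2 and 5. These fits held fewer arrays, which also lowers the precision. Complete probes only gave 9 for Stat6+/- against Epi+ lung. Array weights, added after earlier results were known, gave 12 in perfusate, 1 for Stat6+/- against Epi+ and 9 for OVA lung, and in perfusate 2 for Epi+ against Stat6-/- and 4 for Stat6+/- against Epi+, where no member was called before. With the replicate block, whose numbers were not taken to pair the arrays, the 3 whole lung comparisons with calls had 0. Shares of all probes are not given for these alternatives, so their counts only describe how the calls depend on the setting.

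With 1 array left out the 6 counts ranged from 3 to 6, 0 to 4, 4 to 16, 1 to 10, 0 to 4 and 7 to 14. Epi+ against Stat6-/- and OVA against PBS perfusate ranged from 0 to 1, and the other comparisons without a call stayed at 0. Called members kept their sign in all alternatives run, but lost the call in 148 of 256 checks with another setting and in 188 of 490 with 1 array left out. Among uncalled members Atp1b1 in Stat6+/- against Stat6-/- lung turned to -0.089 with quantile normalization. Slc12a2 turned to -0.22 with the values as deposited and -0.052 with quantile normalization, and Cftr to -0.032 with the values as deposited. In perfusate Cftr ranged from -0.093 to 0.26 with 1 array left out, and it turned to -0.046, -0.062 and -0.093 without Stat6-/- replicate 10 and Stat6+/- replicates 4 and 6. The cause of these changes was not tested.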
